A study of Homo sapiens with 4 samples.

Results

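The genes described here are the YAP-TEAD genes CYR61, CTGF, ANKRD1, AMOTL2, AXL, LATS2, AJUBA, TEAD1, YAP1 and WWTR1. The rule that lists them goes by gene name and uses no measured value, but the genes were chosen with earlier results of these data known. All 10 were found among the 50868 genes counted, CYR61 and CTGF under these older symbols (now CCN1 and CCN2), and all 10 passed the filter on low counts. mRNA was sequenced from A549 cells (human, lung adenocarcinoma) in 2 control libraries and 2 libraries from cells overexpressing USP12, a deubiquitinase. The USP12 cells received tagged human USP12 in a lentiviral pLVX vector and the control cells the empty vector, and whether a line was a clone or a mixed population is not given in the sources used here. The comparison asks how the transcriptome of these tumour cells differs when USP12 is raised.

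YAP1 and WWTR1 (also called TAZ) are transcriptional coactivators of the Hippo pathway that bind no DNA themselves and act mainly through the TEAD factors. The kinases LATS1 and LATS2 phosphorylate them and keep them out of the nucleus, so that pathway activity is set largely on the protein and not on the YAP1 mRNA. CYR61, CTGF and ANKRD1 are the targets most often read as a measure of YAP-TEAD activity in epithelial and lung cancer cells. AMOTL2, LATS2 and AJUBA are targets that also act back on the pathway.

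The libraries held between 14280081 and 16305356 counts, so that 3 counts corresponded to between 0.166 and 0.227 CPM (counts per 1000000 counts of a library, scaled by the TMM method), which covers counting error only. USP12 itself had 15.2 and 34.4 CPM in the 2 controls and 1745 and 2235 CPM under USP12. The control libraries differed from each other more than the USP12 libraries did, with an SD of the log2 ratio across genes of 1.32 against 0.62. Control replicate 1 also carries another date-like prefix in its column heading than the other 3 libraries. Each of the 10 genes is therefore given with its values in both control libraries. The labels do not say whether replicates were separate cultures, so the p-values measure only the spread between these libraries, which may be technical.

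No member passed the test (quasi-likelihood in edgeR, 0 of 10 with a Benjamini-Hochberg adjusted p under 0.05), nor did any of the 15222 genes tested (0%). The overexpressed USP12 did not pass it either (log2 fold change 6.32, SE 0.57, quasi-likelihood adjusted p = 0.0975). Not passing this test therefore does not show that a gene was unchanged. At an unadjusted p under 0.05 there were 1 member and 1155 genes, and with an adjusted p under 0.05 the DESeq2 Wald test and the edgeR exact test gave 0 members each, beside 410 and 429 genes. A looser criterion, a raw p of at most 0.05 together with a log2 fold change of at least 1 in size, was also applied. The study states such a threshold for lower genes only, and not whether its p is raw, and here the criterion was used in both directions. By it, 1 of the 10 members was higher in USP12 cells (CYR61), where 2.92% of all tested genes were. None was lower (0 of 10), where 4.41% of all tested genes were. In 3 members, CYR61, AXL and WWTR1, both USP12 libraries lay above both control libraries, as in 19.5% of all tested genes. In 1 member, CTGF, both lay below, as in 17.0% of all tested genes. The median log2 fold change of the members was 0.31, beside -0.06 over all tested genes. In CYR61, CTGF and AXL the fold change was larger than the difference between the libraries of either group, and in the other 7 it was not. The share of all tested genes with such a fold change was not computed, so this is a description only.

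**Figure D1:**
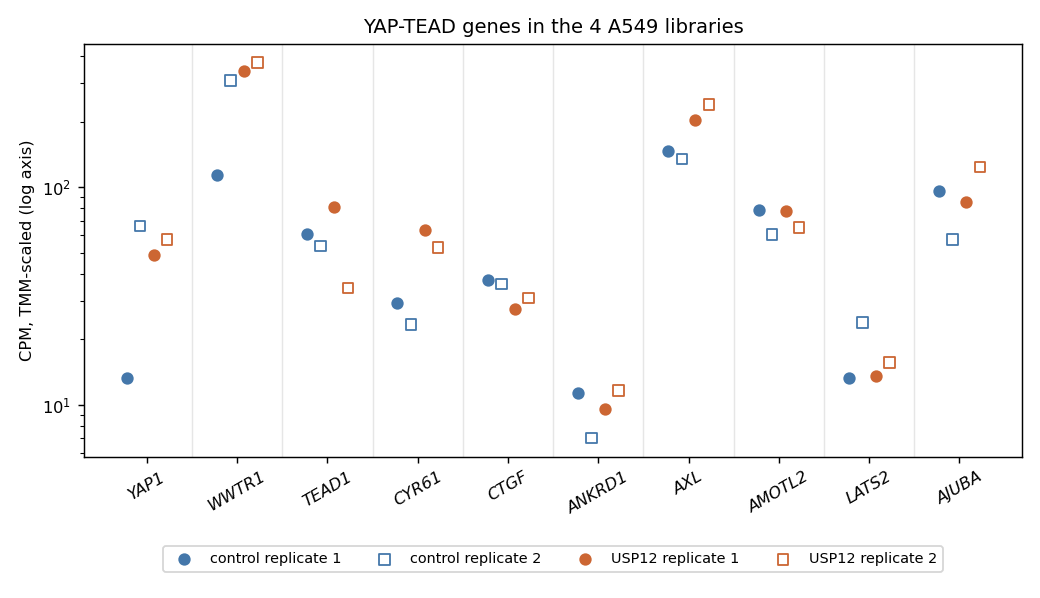
CPM of the 10 YAP-TEAD genes (log axis) in each of the 4 libraries; blue marks are control, orange marks USP12, filled circles replicate 1 and open squares replicate 2. CYR61 is higher in both USP12 libraries (63.7 and 52.7 CPM) than in both control libraries (29.3 and 23.4 CPM), and YAP1 is far lower in control replicate 1 (13.2 CPM) than in the other 3 libraries.

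The CCN genes encode secreted matricellular proteins, and the 2 members of this family stood apart from each other. CYR61 (ENSG00000142871, chromosome 1 of GRCh38, 85580761 to 85584589, plus strand), which binds integrins and regulates adhesion and migration, had 29.3 and 23.4 CPM in control replicates 1 and 2, against 63.7 and 52.7 CPM in USP12 replicates 1 and 2. The groups did not overlap, and the lowest USP12 library was well above the highest control library. Its log2 fold change was 1.14 (standard error, SE, 0.40, edgeR quasi-likelihood adjusted p = 0.524). It was 1.32 with control replicate 1 left out and 1.02 with control replicate 2 left out, in fits that rest on the spread of few libraries. With USP12 replicate 1 or USP12 replicate 2 left out it was 1.02 and 1.28, and it met neither the test nor the criterion. With an offset that removes each library's GC trend it was 0.98, below the criterion.

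CTGF (ENSG00000118523, chromosome 6, 131948176 to 131951372, minus strand), a growth factor-binding protein of matrix remodelling and fibrosis, had 37.5 and 35.9 CPM in the 2 controls and 27.4 and 31.0 CPM under USP12. Here both USP12 libraries were lower, by a small amount. Between the groups its log2 fold change was -0.33 (SE 0.39, quasi-likelihood adjusted p = 0.945), and leaving out any 1 library kept it between -0.42 and -0.23. Within a library, the ratio of CYR61 to CTGF in TPM (counts divided by exon length, with each library summing to 1000000) was 0.493 and 0.412 in control replicates 1 and 2, against 1.47 and 1.08 in USP12 replicates 1 and 2. CTGF was thus the more abundant CCN mRNA in both control libraries and CYR61 in both USP12 libraries. The mean log2 ratio differed by 1.48, or 2.79-fold, between the groups, but an exact two-sided permutation test over the libraries gave p = 0.333, the smallest that 2 against 2 libraries allow. As CYR61 lay above and CTGF below both controls, the ratio had to separate the groups. The test therefore adds nothing to the values of the 2 genes.

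Of the other CCN genes, NOV had 0 and 3 counts in the 2 controls and 22 and 11 counts under USP12. It met the criterion, as did 2.92% of all tested genes in this direction (log2 fold change 3.57, SE 1.28, quasi-likelihood adjusted p = 0.555). With at least 10 counts required in every library it was not tested. Summed over each group, its level was 12.1 times higher, with an exact 95% interval from 3.81 to 61.9 that covers counting error only. WISP1 had 0 counts in both controls, and 5 and 9 counts under USP12. Set against a floor of 3 counts over the control group it was 5.15-fold higher. This value takes its 14 counts under USP12 as exact, so it is not a lower limit. Its counts were too low to be tested. WISP2 had 28.7 and 3.88 CPM in control replicates 1 and 2, against 5.33 and 9.56 CPM in USP12 replicates 1 and 2, with overlapping groups. WISP3 had 0 counts in every library. Among the tested genes, the profile over the 4 libraries closest to that of CYR61 (Euclidean distance of centred log2 CPM) was that of MTATP6P1 (distance 0.05), a mitochondrial pseudogene whose counts are uncertain because it shares sequence with its mitochondrial parent. Next came IGFBP3 (0.07), a secreted binder of insulin-like growth factors, and C11orf71 (0.08). Those closest to CTGF were NIPSNAP3A (0.05), TVP23C (0.05) and PLD1 (0.06). With only 4 libraries and 15222 genes tested, near-equal profiles are easily found. These neighbours are a description only, and joint regulation was not tested.

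**Figure D2:**
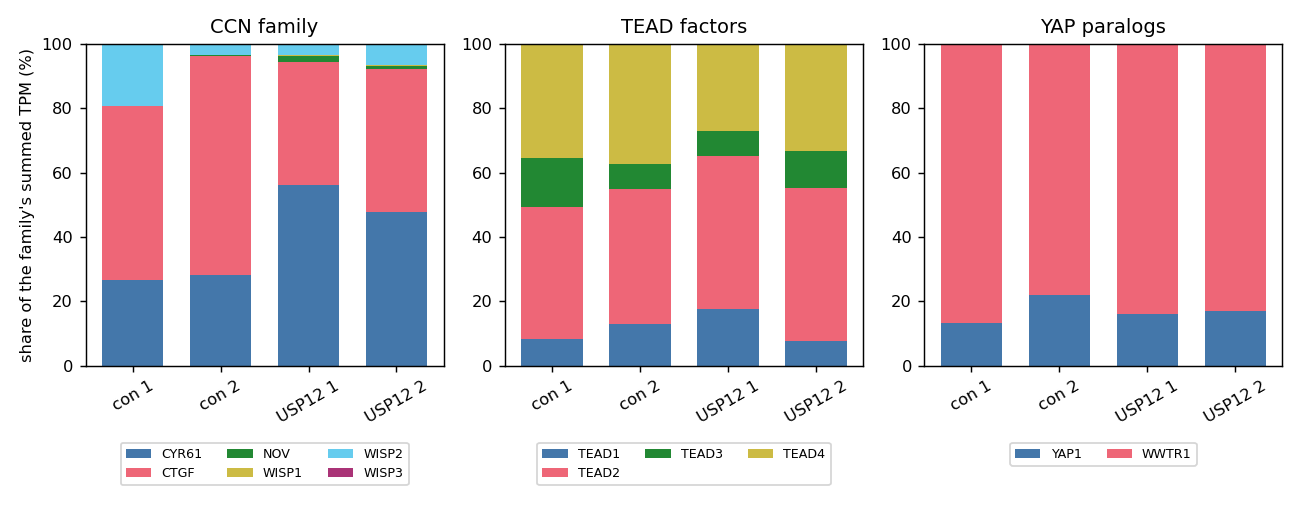
Share of each paralog in the summed TPM of its family, in percent, in each library (con, control). CYR61 holds 26.6% and 28.1% of the CCN total in the 2 controls and 56.1% and 47.8% under USP12, while TEAD2 leads the TEAD factors and WWTR1 leads YAP1 in all 4.

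ANKRD1 (ENSG00000148677, chromosome 10, 90912096 to 90921087, minus strand), a muscle ankyrin repeat protein that shuttles between sarcomere and nucleus in muscle and is a direct YAP-TEAD target elsewhere, was the member with the lowest counts, between 127 and 168 in a library. It had 11.3 and 7.04 CPM in the 2 controls and 9.50 and 11.6 CPM under USP12, so the groups overlapped. Its estimated log2 fold change was 0.21 (SE 0.50, quasi-likelihood adjusted p = 0.976), below the difference of 0.67 between the control libraries. ANKRD1 made up between 66.2% and 84.8% of the TPM of its family in each library, ahead of ANKRD2 and ANKRD23. ANKRD23 had 3.78 and 1.94 CPM in control replicates 1 and 2, against 1.08 and 0.485 CPM in USP12 replicates 1 and 2, a log2 fold change of -1.86 (SE 0.80, quasi-likelihood adjusted p = 0.688). Its exons overlap those of ANKRD39, so its counts are uncertain.

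TEAD factors bind the letters GGAATG, and the promoters of CTGF and ANKRD1 are shown because these are the members with more than 1 such match. The windows come from RefSeq (GRCh38.p14) and run from 250 bases before to 50 bases after an annotated start. Both strands were searched, and no match overlapped another. Capitals mark each match in the 250 bases before the start, on the gene's strand.
CTGF, chr6:131951373-131951622, minus strand: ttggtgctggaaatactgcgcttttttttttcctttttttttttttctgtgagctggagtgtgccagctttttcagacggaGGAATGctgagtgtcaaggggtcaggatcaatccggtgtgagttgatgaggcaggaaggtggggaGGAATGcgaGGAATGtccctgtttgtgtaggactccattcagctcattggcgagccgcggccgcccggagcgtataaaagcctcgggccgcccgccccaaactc
ANKRD1, chr10:90921088-90921337, minus strand: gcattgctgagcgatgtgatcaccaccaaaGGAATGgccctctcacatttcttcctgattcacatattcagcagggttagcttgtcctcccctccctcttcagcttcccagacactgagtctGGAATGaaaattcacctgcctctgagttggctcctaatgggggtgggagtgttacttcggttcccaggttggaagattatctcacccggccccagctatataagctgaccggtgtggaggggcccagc
CTGF held 3 matches, which begin 169, 104 and 95 bases before the start, as 0.128% of all 35116 windows held 3 or more. ANKRD1 held 2, which begin 220 and 128 bases before the start. These 2 promoters held the most matches among the 8 members searched. CYR61, the member that met the criterion, was not searched, and a relation of matches to fold changes was not tested.

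Promoter windows were matched for 8 of the 10 members (not CYR61 and TEAD1), 12 windows in all. A match to GGAATG or its reverse complement CATTCC was found in at least 1 window of 7 of these 8 genes, against 16.7% of the 27305 genes with a window. As the genes are textbook TEAD targets or partners, this share is a description only. The 5 members with 1 match are shown with 30 bases around it, capitals marking the match.
AMOTL2, chr3:134374499-134374528, minus strand: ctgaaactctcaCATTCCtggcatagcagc
AJUBA, chr14:22976884-22976913, minus strand: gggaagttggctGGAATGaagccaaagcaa
AXL, chr19:41226531-41226560, plus strand: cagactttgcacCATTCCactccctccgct
LATS2, chr13:21061560-21061589, minus strand: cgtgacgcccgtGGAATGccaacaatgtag
YAP1, chr11:102110273-102110302, plus strand: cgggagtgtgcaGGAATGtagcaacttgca
In AMOTL2, AJUBA and AXL the match lies in 1 of 2 windows, and in LATS2 it begins at base 10 of the transcript. WWTR1 held no match in its 2 windows. Of the 12 windows, 1 (ANKRD1) held the AP-1 letters TGANTCA, present in 7.71% of all windows, and 0 held the CArG box of SRF, present in 1.29%.

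AXL (ENSG00000167601, chromosome 19, 41219223 to 41261766, plus strand) encodes a receptor tyrosine kinase of the TAM family linked to invasion and drug resistance in lung cancer. It had 147 and 135 CPM in the 2 controls and 204 and 240.1 CPM under USP12. The groups did not overlap, and the 2 libraries of each group lay close together. Its log2 fold change came to 0.66 (SE 0.34, quasi-likelihood adjusted p = 0.795), and it was between 0.54 and 0.78 when any 1 library was left out. AXL made up between 91.1% and 96.5% of the TAM receptor TPM in each library. Its paralogs TYRO3 (log2 fold change -0.34, SE 0.54) and MERTK (-0.02, SE 0.66) and its ligands GAS6 (-0.29, SE 0.71) and PROS1 (0.28, SE 0.44) had overlapping groups and did not pass the test. GAS6 shares exon bases with the antisense GAS6-AS1, which had 8 and 25 counts in the 2 controls and 85 and 138 counts under USP12, so its own counts are uncertain.

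The 3 targets that act back on the pathway had overlapping groups. AMOTL2 (ENSG00000114019, chromosome 3, 134355347 to 134375479, minus strand), an angiomotin protein that holds YAP at junctions and in the cytoplasm, had 78.7 and 60.6 CPM in control replicates 1 and 2, against 77.5 and 65.1 CPM in USP12 replicates 1 and 2. Between the groups its log2 fold change was 0.03 (SE 0.37, quasi-likelihood adjusted p = 0.992), and both USP12 libraries lay between the 2 control libraries. AMOTL2 was the largest part of the angiomotin TPM in each library (from 52.2% to 80.1%), AMOTL1 made up nearly all of the rest, and AMOT had at most 2 counts. AMOTL1 had 30.2 and 85.7 CPM in the 2 controls and 43.5 and 58.5 CPM under USP12.

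LATS2 (ENSG00000150457, chromosome 13, 20973036 to 21061586, minus strand), a kinase that inactivates YAP1 and WWTR1, had 13.2 and 23.9 CPM in control replicates 1 and 2, against 13.6 and 15.7 CPM in USP12 replicates 1 and 2. Control replicate 2 was the high library and the other 3 were close to each other. Its estimated log2 fold change was -0.34 (SE 0.49, quasi-likelihood adjusted p = 0.959), -0.71 with control replicate 1 left out and 0.17 with control replicate 2 left out. Its paralog LATS1 showed the same order of libraries, with 8.47 and 34.5 CPM in the 2 controls and 11.8 and 18.1 CPM under USP12. AJUBA (ENSG00000129474, chromosome 14, 22971177 to 22982551, minus strand), a LIM protein that can bind and restrain LATS kinases, had 95.6 and 57.6 CPM in control replicates 1 and 2, against 85.7 and 124 CPM in USP12 replicates 1 and 2. Its log2 fold change came to 0.45 (SE 0.43, quasi-likelihood adjusted p = 0.929), below the difference of 0.73 between the control libraries, and it was 0.86 with control replicate 1 left out and 0.16 with control replicate 2 left out. The related LIM proteins LIMD1 and WTIP differed between the control libraries by -1.09 and 2.27 on the log2 scale, and their fold changes between groups were 0.29 and 0.04.

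YAP1 (ENSG00000137693, chromosome 11, 102110447 to 102233424, plus strand), the pathway's main coactivator, had 13.2 and 66.3 CPM in the 2 controls and 49.0 and 57.4 CPM under USP12. Both USP12 libraries lay between the 2 control libraries, of which control replicate 1 was the low one. Between the groups its log2 fold change was 0.42 (SE 0.73, quasi-likelihood adjusted p = 0.964). With control replicate 1 left out it was -0.31, and with control replicate 2 left out 2.03. WWTR1 (ENSG00000018408, chromosome 3, 149517235 to 149736714, minus strand), its paralog, had 114 and 309.7 CPM in control replicates 1 and 2, against 341 and 374 CPM in USP12 replicates 1 and 2. Here the groups did not overlap, yet control replicate 2 was close to the USP12 libraries and control replicate 1 far below them. Its estimated log2 fold change was 0.75 (SE 0.52, quasi-likelihood adjusted p = 0.878), 0.21 with control replicate 1 left out and 1.68 with control replicate 2 left out. Per exon length, WWTR1 was 6.51 and 3.53 times as abundant as YAP1 in the 2 controls and 5.25 and 4.91 times under USP12, so it held most of the mRNA of this pair in each library.

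**Figure D3:**
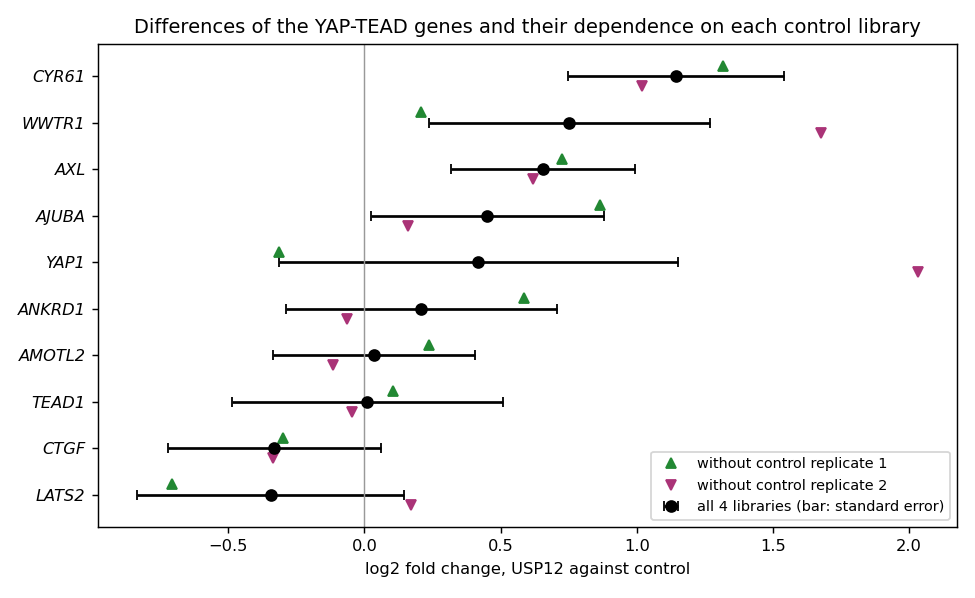
log2 fold change of each YAP-TEAD gene between USP12 and control cells; black points use all 4 libraries with bars of 1 standard error, and triangles leave out 1 control library. The values of CYR61, AXL and CTGF move little, while YAP1 goes from -0.31 without control replicate 1 to 2.03 without control replicate 2.

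The difference between the control libraries moved with base composition. Across the 15094 tested genes with an annotated transcript, the log2 difference between control replicates 1 and 2 had a Spearman correlation of 0.586 with GC content, and that between the USP12 libraries one of 0.136. These are correlations across genes of the same libraries, and genes are not independent replicates. In the GC tertile with the lowest content the median difference between control replicates 1 and 2 was -0.88, and in the highest tertile it was 0.86. YAP1 (43.5% GC) and WWTR1 (42.2%) lie in the lowest tertile, and their differences were -2.31 and -1.44. ANKRD1 (42.1%) and TEAD1 (43.0%) lie there too, but with differences of 0.67 and 0.18. With the GC content offset the fold changes of YAP1 and WWTR1 were 0.39 and 0.70 on the log2 scale, and the part of base composition in these results was not tested further.

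**Figure D4:**
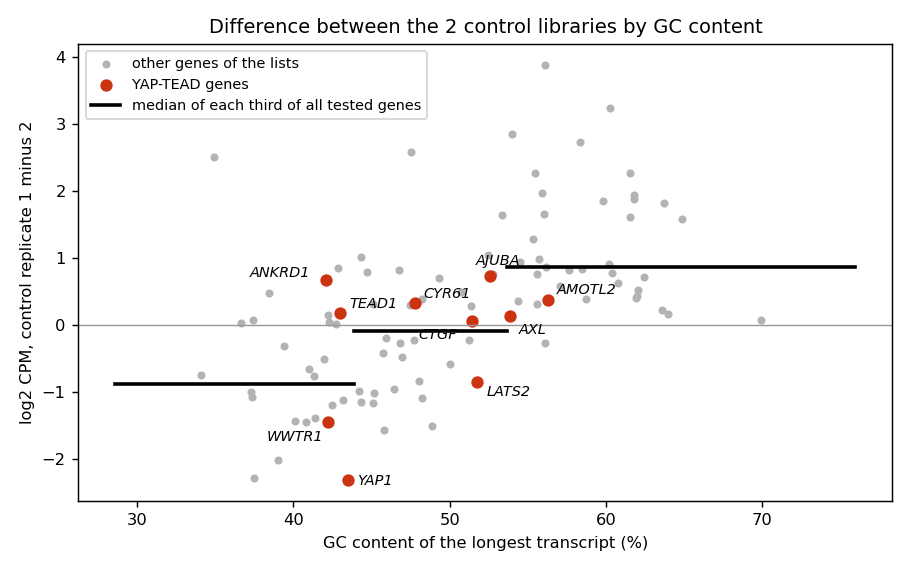
log2 CPM of control replicate 1 minus control replicate 2 against the GC content of the longest transcript; red points are the YAP-TEAD genes, grey points the other tested genes of the lists, and black bars the medians of the GC tertiles of all tested genes (-0.88, -0.08 and 0.86). YAP1 at -2.31 and WWTR1 at -1.44 lie below the median of the lowest tertile.

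TEAD1 (ENSG00000187079, chromosome 11, 12674421 to 12944737, plus strand), a DNA-binding partner of YAP1 and WWTR1, had 60.8 and 53.7 CPM in the 2 controls and 81.0 and 34.4 CPM under USP12. It was the member whose USP12 libraries differed most, by 1.23 on the log2 scale, with 1 above and 1 below both control libraries. Its log2 fold change came to 0.01 (SE 0.50, quasi-likelihood adjusted p = 0.998). TEAD1 made up between 7.77% and 17.6% of the TEAD TPM in each library, whereas TEAD2 made up between 41.3% and 47.6% and TEAD4 between 27.2% and 37.5%. TEAD4 had 56.4 and 32.8 CPM in control replicates 1 and 2, against 26.6 and 31.3 CPM in USP12 replicates 1 and 2, a log2 fold change of -0.62 (SE 0.45, quasi-likelihood adjusted p = 0.889), so that the USP12 libraries were the 2 lowest. TEAD2 (log2 fold change -0.16) and TEAD3 (-0.72) had overlapping groups. Of the VGLL cofactors, which compete with YAP1 for TEAD, VGLL3 (0.48, with both USP12 libraries above both controls) and VGLL4 (0.13, with overlapping groups) were tested and did not pass. VGLL1 had at most 1 count and VGLL2 had 0 counts in every library.

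Ordered by TPM within the control libraries, AXL (mean 65.3 TPM) and WWTR1 (65.0) led, followed by CTGF (37.5), AJUBA (30.04), AMOTL2 (25.2), CYR61 (16.8), YAP1 (16.6), TEAD1 (12.7), ANKRD1 (11.8) and LATS2 (8.27). In this order the library ranges of AJUBA and AMOTL2, and of AMOTL2 and CYR61, did not overlap, while all other neighbours overlapped. In the USP12 libraries AXL (84.8 TPM), WWTR1 (83.6), AJUBA (35.1) and CYR61 (30.6) led, followed by CTGF (24.4). There WWTR1 and AJUBA, CYR61 and CTGF, AMOTL2 and YAP1, YAP1 and ANKRD1, and TEAD1 and LATS2 did not overlap, and the other neighbours did. With the length of the longest transcript in place of all exons, WWTR1 came before AXL in both groups. AJUBA then also came before CTGF in the controls. In the USP12 libraries AMOTL2 came before CTGF, and TEAD1 before ANKRD1. These orders rest on means over 2 libraries, and TPM were not scaled between libraries. The mean hides a difference between the controls for WWTR1, which had 27.8 TPM in control replicate 1, below AXL (58.4), AJUBA (33.1) and CTGF (32.7), and 102 TPM in control replicate 2, the highest of the 10. YAP1 likewise had the lowest level of the 10 in control replicate 1 (4.27 TPM) and had 28.95 TPM, above AJUBA (27.0), in control replicate 2.

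Of 16 further genes from a published signature of YAP-TEAD targets, 3 were higher by the criterion and 0 lower, where the shares over all tested genes were 2.92% and 4.41%. These were TGFB2, IGFBP3 and FOXF2. TGFB2, a transforming growth factor ligand, had 24.5 and 22.2 CPM in the 2 controls and 90.6 and 96.8 CPM under USP12 (log2 fold change 2.00, SE 0.37, quasi-likelihood adjusted p = 0.210). IGFBP3 had 440.5 and 361 CPM in control replicates 1 and 2, against 923 and 800.4 CPM in USP12 replicates 1 and 2 (log2 fold change 1.10, SE 0.32, quasi-likelihood adjusted p = 0.413). For FOXF2, a forkhead transcription factor, 6.73 and 5.76 CPM stood against 15.04 and 14.4 CPM (1.24, SE 0.46, quasi-likelihood adjusted p = 0.576). Both USP12 libraries were above both control libraries in 7 of the 16 genes and below them in 5, against 19.5% and 17.0% of all tested genes. The median log2 fold change of the 16 was 0.32, and it was 0.16 with the GC content offset, 0.16 without USP12 replicate 2 and 0.49 without USP12 replicate 1. Without USP12 replicate 1, and likewise without USP12 replicate 2, 1 of the 16 was higher by the criterion. With no filter, the DESeq2 Wald test or the edgeR exact test, 1 of the 16 was lower by it. The GC content offset, alone or with the replicate block, also gave 1 lower.

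Of the 20 Hippo kinases and scaffolds, such as the MST kinases STK3 and STK4 and the adaptors SAV1, MOB1A and MOB1B, 19 were tested, 1 was higher by the criterion and 0 lower, beside 2.92% and 4.41% of all tested genes. FRMD6, a FERM protein upstream of the kinases, had 2.12 and 2.66 CPM in the 2 controls and 6.98 and 7.27 CPM under USP12 (log2 fold change 1.57, SE 0.54, quasi-likelihood adjusted p = 0.521). The median of the 19 was -0.05 (0.06 under the replicate block, 0.02 under the offset for GC). Of the 19, 16 were lower in control replicate 1 than in control replicate 2, beside 7684 of the 15222 genes tested. Over all 19, the median log2 difference of control replicate 1 minus control replicate 2 was -0.99. Without control replicate 1, 3 of them were lower by the criterion and the median was -0.45, and without control replicate 2, 2 were higher and the median was 0.65. Without either USP12 library 0 were higher. The median GC content of these 19 genes was 42.5%, against 48.4% over all tested genes. Of 13 tested SRF-MRTF targets, actin and adhesion genes of a factor that shares many targets with YAP, 0 met the criterion in either direction, with a median of 0.11. That median was 0.89 without control replicate 1, -0.13 without control replicate 2 and 0.48 with the GC content offset. No filter gave 2 higher by the criterion, and the replicate block, alone or with the GC content offset, gave 1. The count also changed in fits that left out 1 library. Of the 7 AP-1 factors, which bind beside TEAD at many enhancers, 0 met it, with a median of -0.39 that was -0.80 without USP12 replicate 1. Of these, 1 was lower by the criterion with no filter, the filter of 10 counts, the DESeq2 Wald test or the edgeR exact test. The same held with the replicate block, the offset for GC, or both together. Leaving out a control library also changed these counts. In 4 of these 7, FOS, FOSL1, JUN and JUND, named after their values were seen, the USP12 libraries were the 2 lowest, as in 17.0% of all tested genes.

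**Figure D5:**
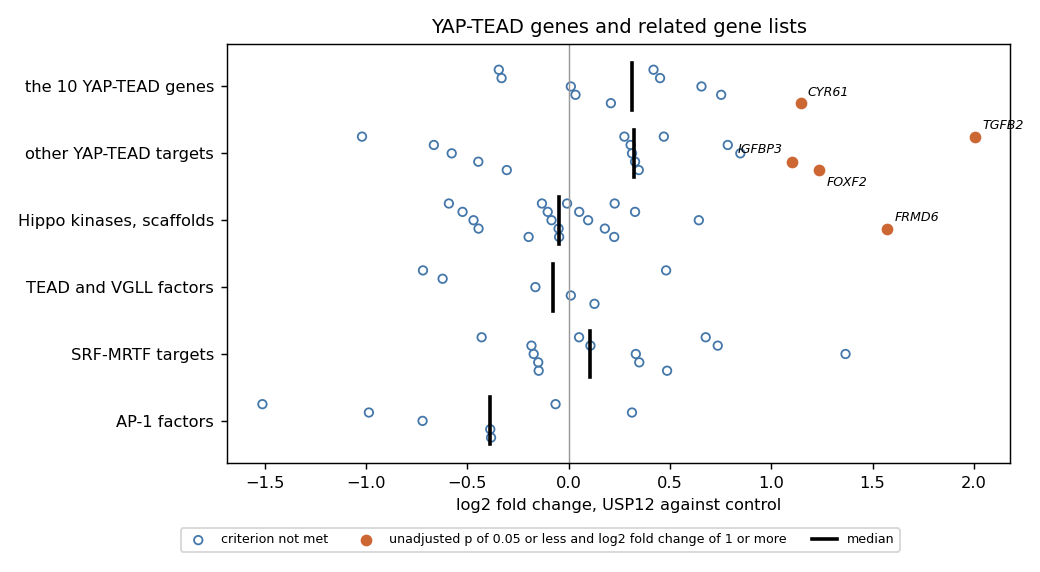
log2 fold change between USP12 and control cells for each tested gene of 6 lists; filled points meet the criterion (raw p of at most 0.05, log2 fold change of at least 1), open points do not, and bars are medians. CYR61, TGFB2, IGFBP3, FOXF2 and FRMD6 are the filled points, and the median of the 10 YAP-TEAD genes is 0.31.

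All 9 A549 epithelial markers were tested, and summed to 18712 and 14904 CPM in the 2 controls and 14539 and 13838 CPM under USP12. KRT19 among them was lower by the criterion, as were 4.41% of all tested genes, with 437 and 114 CPM in control replicates 1 and 2, against 68.7 and 55.9 CPM in USP12 replicates 1 and 2. Both USP12 libraries lay below both controls in 4 of the 9 (KRT19, EPCAM, KRT8 and KRT18) and above them in 1 (AKR1C1). In the remaining 4 the groups overlapped. Over all tested genes 17.0% lay below and 19.5% above. KRT8 and KRT18 share 525 exon bases on opposite strands, so their counts are partly uncertain. The 9 fibroblast markers, which matter here because fibroblasts express CYR61 and CTGF strongly, summed to 34.6 and 4.21 CPM in the 2 controls and 22.7 and 17.5 CPM under USP12. Most of these sums came from COL1A1, with 172 and 47 counts in the 2 controls and 262 and 211 counts under USP12, and from THY1, with 219 and 18 counts in the 2 controls and 22 and 6 counts under USP12. COL1A1 was thus above both controls in CPM in each USP12 library, as were 19.5% of all tested genes, and THY1 was high in control replicate 1 alone. COL3A1 had 41 counts in control replicate 1 and at most 10 in the others. DCN and FAP had 0 counts in every library, and COL1A2 had at most 2 counts. The 6 endothelial markers summed to 15.4 and 8.59 CPM in control replicates 1 and 2, against 0.504 and 1.52 CPM in USP12 replicates 1 and 2, nearly all from CDH5 and PECAM1. These were the 2 tested, and both were lower by the criterion, as were 4.41% of all tested genes. Neither passed the test (quasi-likelihood adjusted p = 0.182 for CDH5 and 0.447 for PECAM1). VWF, TEK, KDR and CLDN5 had at most 3 counts in any library. The 6 leukocyte markers summed to between 53.0 and 112 CPM, mostly from CD68 and CD14, while CD3E had 0 counts and PTPRC at most 1. CD68 shares 1765 exon bases on the same strand with another gene, which had between 182 and 777 counts, so its own counts are uncertain. Of the 3 leukocyte markers tested, LYZ was lower by the criterion, as were 4.41% of all tested genes. It had at most 27 counts in a library and did not pass the test (quasi-likelihood adjusted p = 0.521). In RNA from whole cultures, fewer cells of a type and less RNA per cell cannot be told apart, and the part of these markers in the results above was not tested.

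Annotated exons of another gene overlap those of 6 members in GENCODE release 44. For WWTR1, the antisense WWTR1-AS1 had 20 and 21 counts in the 2 controls and 29 and 29 counts under USP12, against at least 1507 for WWTR1. For YAP1, an antisense gene had between 3 and 10 counts. The other overlapping genes of AMOTL2, CTGF, AJUBA, AXL and YAP1 had 0 counts in every library. The libraries were made with a stranded kit, but no source used here says whether strand entered the counting, so counts of overlapping stretches are uncertain.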

How the data were processed

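The deposited values are raw counts per gene. The authors trimmed reads and removed rRNA with Seqtk, mapped them to GRCh38 (HISAT2 2.0.4) and counted uniquely mapped fragments (StringTie 1.3.0, per the labels), from stranded libraries, with the annotation's release and whether counting used strand not given in the sources used here. Counts were fitted in R 4.3.3 with edgeR 4.0.16 (filterByExpr, TMM, quasi-likelihood test, Benjamini-Hochberg over 15222 genes, no covariate). A prior count of 2 entered log2 CPM. An approximate standard error (SE) was taken as the fold change over the root of its F value. The test was run on simulated counts first. Lengths, positions and GC content came from GENCODE release 44, with 99.2% of tested genes matched by identifier. The depth was between 14280081 and 16305356 counts per library.

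Groups came from sample titles. The members and lists were chosen with earlier results of these data known. Named genes were the members, USP12, paralogs in the members' families, up to 6 genes per direction of every other list that met the criterion, and the 3 nearest profiles of CYR61 and CTGF. Markers and AP-1 genes named beyond that were chosen after their values were seen. Alternatives were DESeq2 size factors, no filter, at least 10 counts in every library, a Wald test (DESeq2 1.42.0), an exact test (edgeR), a replicate block, a GC content offset, both together, and leaving out each library. With a single library left in a group, that library was assumed to vary like the other group. The value of 1 leukocyte marker is not reported here.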

Additional observations from a re-analysis of the deposited data

How the results depend on the processing

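Of 120 recomputed fold changes of the members (12 alternatives each), 103 kept their direction and their side of the threshold, 13 turned direction and 4 passed the threshold. Those that turned were ANKRD1 (-0.086 with the GC content offset), TEAD1 (-0.0098 with DESeq2's size factors and with its Wald test, -0.11 with the replicate block, -0.23 with the offset for GC, -0.31 with both) and, on leaving out 1 library, ANKRD1 (-0.065 to 0.59), AMOTL2 (-0.11 to 0.24), LATS2 (-0.71 to 0.17), TEAD1 (-0.72 to 0.50) and YAP1 (-0.31 to 2.03). The count of members at an adjusted p under 0.05 was 0 in every fit of all 4 libraries and between 0 and 3 on leaving out 1 library: 1 (CYR61) without control replicate 1, 3 (CYR61, YAP1 and WWTR1) without control replicate 2. Those fits rest on the spread of few libraries. The fits without a control library also called far more of all tested genes than the fit of all 4 libraries did, most of all without control replicate 2. The counts of 1 and 3 members therefore do not set the members apart from other genes. The count of members higher by the criterion was 0 with the GC content offset, alone or with the block, and between 0 and 3 on leaving out 1 library, with 0 without either USP12 library and 3 without control replicate 2. None was lower by it in any fit. The median of the members was between 0.17 and 0.45 on leaving out 1 library. Over all tested genes the count at an adjusted p under 0.05 was 0 (1155 at an unadjusted p under 0.05), 528 without a filter, 410 with the DESeq2 Wald test, 429 with the edgeR exact test, 404 with the replicate block, 17 with the offset for GC, 195 with both, and between 40 and 5162 on leaving out 1 library. Same-numbered libraries are not stated to be paired, and their deviations correlated by 0.152 across genes. The block changed no call of a member and gave CYR61 a log2 fold change of 1.15. Of 20 TPM means, 5 moved beyond the spread between replicates with the longest transcript. The cause of these differences was not tested.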
